A study of Rattus norvegicus with 8 samples.

Results

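In all, 10 genes of the blood vessel wall and of vessel growth were followed in the prostate of 8 TRAP rats: the secreted factors Vegfa, Angpt2 and Adamts1, the receptors Kdr, Flt1, Tek and Robo4, and the junction and surface proteins Pecam1, Cdh5 and Cldn5. Probes were taken by the gene name in the scanner files. This gave 15 probes for 9 genes, and 1 probe listed under the older name Pecam was added for Pecam1. The 10 genes thus had 16 probes of 41012 on the array, and all 10 were among the 23186 genes tested. TRAP rats carry a transgene in which the probasin promoter drives the SV40 T antigen in prostate epithelium, and they develop adenocarcinoma of the prostate. The controls carried the transgene too.

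Each array held ventral prostate RNA of 1 rat, labelled with Cy5, beside RNA of a reference, labelled with Cy3. The 8 rats were heterozygous TRAP males of the SD strain at 15 weeks of age. The 4 controls (Control 102, 103, 104 and 106) had basal diet and tap water, and the other 4 (Telmisartan 302, 303, 305 and 306) drank water with telmisartan, which blocks the angiotensin II type 1 receptor, for 12 weeks, starting at an age of 3 weeks. The dose was 10 mg/kg a day going by the text of the series, although a label of the treated rats gives 2 mg/kg as a second possibility. The reference was normal ventral prostate of male F344 rats at 6 weeks of age. A log2 ratio is therefore the TRAP prostate over the younger normal prostate of another strain, and strain, age, transgene and dye cannot be told apart in it. All values are of whole tissue, in which fewer vessel cells and less RNA per vessel cell cannot be told apart.

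VEGF-A, the product of Vegfa, is released by epithelial and stromal cells that lack oxygen and acts on endothelial cells. Kdr is its main signalling receptor, and Flt1 binds it tightly with little signalling. Angpt2 comes from endothelial cells and opposes the action of angiopoietin 1 on the receptor Tek, which keeps vessels quiet. Pecam1 and Cdh5 join neighbouring endothelial cells, Cldn5 seals the tight junctions between them, Robo4 is an endothelial receptor of the Roundabout family, and Adamts1 is a secreted metalloprotease that cleaves matrix proteoglycans and can restrain vessel growth. The comparison with the reference describes how these genes stood in the tumour-bearing gland, and the comparison of the groups asks whether telmisartan changed them.

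The probe sequences are shown because each gene was read by 1 to 3 oligonucleotides of 60 bases and the readings of 1 gene could differ. The probes that gave the main values of the well measured genes follow, some whole and others as the first 30 bases. A second probe of Vegfa and of Angpt2 and both probes of Cdh5 are shown with them. The capitals mark the start codon of Vegfa. Whether the other probes lie in coding sequence was not tested.
Vegfa A_43_P15572: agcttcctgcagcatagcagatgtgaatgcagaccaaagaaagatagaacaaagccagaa
Vegfa A_44_P300751: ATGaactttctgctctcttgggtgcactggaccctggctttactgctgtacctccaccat
Angpt2 A_43_P15980: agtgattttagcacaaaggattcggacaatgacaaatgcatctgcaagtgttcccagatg
Angpt2 A_44_P792166, first 30 bases: agggacttctaagtagtggttacaggttat
Adamts1 A_44_P257058, first 30 bases: aacatatttatttttatacatttatttcta
Kdr A_43_P11686, first 30 bases: gtgtgtccttgttctctgttcttaggagga
Cdh5 A_44_P121658: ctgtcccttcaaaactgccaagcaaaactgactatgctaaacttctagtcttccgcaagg
Cdh5 A_43_P19735: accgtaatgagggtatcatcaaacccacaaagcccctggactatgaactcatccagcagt
Cldn5 A_43_P15791: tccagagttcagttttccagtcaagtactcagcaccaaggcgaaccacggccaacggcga

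The probe of Adamts1 is rich in A and T, with a GC content of 16.7% against a median of 43.3% over all probes, and 0.107% of probes had a content as low. No genome of the build used for the array was at hand, so positions of the probes are not given.

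Of the 10 genes, 5 were bright enough to be measured and 5 were close to the background. Vegfa, Angpt2, Adamts1, Kdr and Cldn5 were well above background in both channels on all 8 arrays. In Cy5 alone 5 of the 10 genes passed on all 8 arrays, against 83.2% of the genes tested. The share of all genes was not counted for Cy3 or for both channels. Flt1, Tek, Robo4, Pecam1 and Cdh5 were well above background in Cy3 on at most 1 of the 8 arrays. In Cy5 the brighter probe of Flt1 and of Tek and the probe of Robo4 each passed on 3 control arrays and 1 treated array. The probe of Pecam1 passed on 4 and 1. The probes of Cdh5 passed on 4 and 2 (A_44_P121658) and on 4 and 3 (A_43_P19735). A dimmer probe of Flt1 (A_43_P12015) passed on 2 control arrays and no treated array, and a dimmer probe of Tek (A_44_P335594) and of Angpt2 (A_44_P419123) passed on 0 of 8 in either channel.

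The share of all spots well above background in Cy5 was 72.5% ± 5.63 (SD, n = 4) in control rats and 62.8% ± 3.94 (n = 4) with telmisartan, with an exact permutation p of 0.0571. For Cy3 the shares were 51.2% ± 1.47 and 49.5% ± 0.908, with a p of 0.114 by the same exact test. The part of this difference in the fewer treated arrays that detected the dim vessel genes was not tested. The number of arrays, 4 a group, limits the precision of every value given here.

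**Figure D1:**
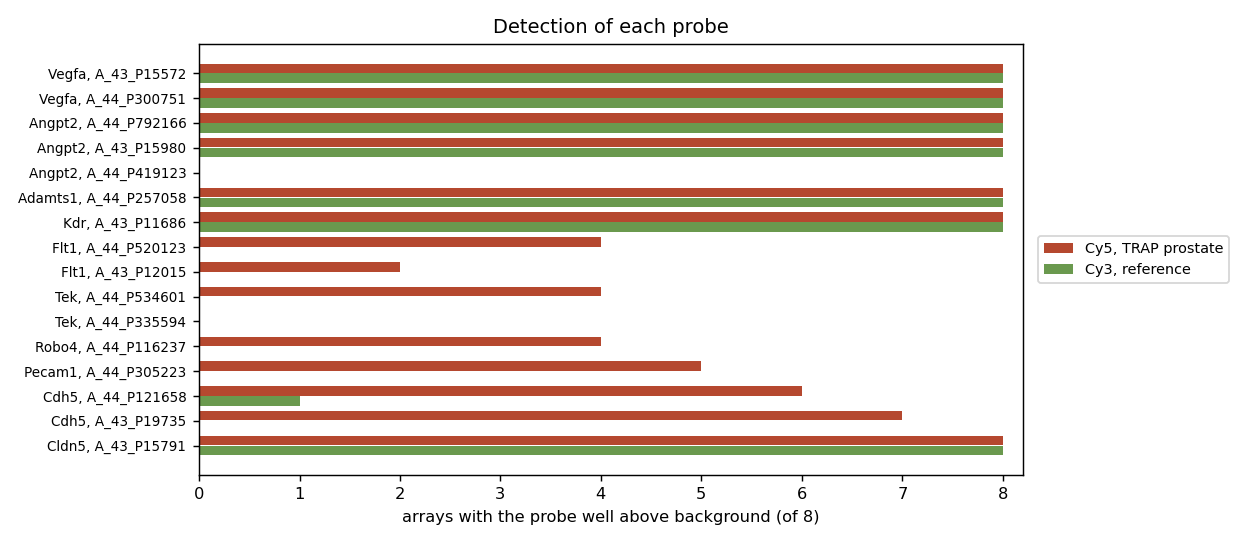
Number of the 8 arrays on which each of the 16 probes was well above background, in Cy5 (TRAP prostate) and in Cy3 (reference). The probes of Vegfa, Adamts1, Kdr and Cldn5 and the brighter 2 of Angpt2 reach 8 in both channels, and the probes of Flt1, Tek, Robo4, Pecam1 and Cdh5 reach at most 1 in Cy3.

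Of the secreted factors, Vegfa lay below the reference in every rat after loess, although its group means were 0.375 and 0.183 when each array was centred on its median in place of loess. Its probe A_43_P15572, which stood in 10 spots on each array, gave log2 ratios of -0.38, -0.17, -0.59 and -0.65 in Control 102, 103, 104 and 106. In Telmisartan 302, 303, 305 and 306 it gave -0.76, -0.33, -0.65 and -0.80. The groups overlapped, with 1 treated rat above 3 of the controls. The means were -0.45 ± 0.22 and -0.64 ± 0.21 (SD, n = 4 each), a difference of -0.19 (SE 0.14, limma adjusted p = 0.982). The probe at the start codon, A_44_P300751, ran from -0.35 to -0.08 in control and from -0.43 to -0.22 in treated rats and differed by -0.14 (SE 0.10).

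Angpt2, the vessel-destabilising ligand of Tek, was also below the reference in all 8 rats after loess (means of 0.4 and 0.025 with median centring). The brightest of its probes, A_44_P792166, read -0.71, -0.58, -0.54 and -0.40 in the control rats and -1.27, -0.99, -0.27 and -0.78 in the treated rats. The treated rats were the more scattered, with both the lowest value, in Telmisartan 302, and the highest, in Telmisartan 305. The means were -0.55 ± 0.13 and -0.83 ± 0.42 (SD, n = 4 each), a difference of -0.28 (SE 0.19, limma adjusted p = 0.982). The second probe, A_43_P15980, ordered the treated rats the same way, at -0.88, -0.68, -0.10 and -0.61, but set the difference at -0.08 (SE 0.17). For the brightest probe, the log2 Cy3 signal of Telmisartan 306 was 8.65 while the other arrays lay between 9.54 and 9.68. Its log2 Cy5 signal of 7.86 was likewise the lowest of the 8. Leaving out Telmisartan 302 brought the difference to -0.13 and leaving out Telmisartan 305 brought it to -0.46, with limma adjusted p of 0.917 and 0.565.

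Adamts1, the metalloprotease, was the member that separated the groups. It stood at 0.38, 0.79, 0.29 and 0.16 in the control rats and at -0.03, -0.01, -0.08 and -0.12 in the treated rats. Every control was above the reference and above every treated rat, and the treated rats lay within 0.12 of it after loess (means of 0.888 and 0.25 with median centring). The means were 0.40 ± 0.27 and -0.06 ± 0.05 (SD, n = 4 each), so that Adamts1 was 1.38-fold lower in treated rats by a log2 difference of -0.46 (SE 0.13). In limma over all genes the unadjusted p was 0.00618 and the adjusted p 0.934, so the difference did not pass the threshold of 0.05. The exact permutation p was 0.0286, which is the smallest that the 70 assignments of 4 against 4 allow.

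The groups did not overlap for 1 of the 10 genes, against 2.73% of all genes tested in either direction and 1.23% with the treated rats lower. At an unadjusted p under 0.05 there was again 1 of 10, Adamts1, against 4.82% of all genes (2.07% lower and 2.74% higher), and after adjustment 0 of 10 against 0.0%. The Adamts1 difference lay in the Cy5 channel, where it was -0.52 on the log2 scale, and the Cy3 difference was -0.06 (exact permutation p = 0.143). It was -0.60 on the first slide and -0.32 on the second, each with 2 control and 2 treated rats. Without Control 103, the highest rat, it was -0.34 (limma adjusted p = 0.545).

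**Figure D2:**
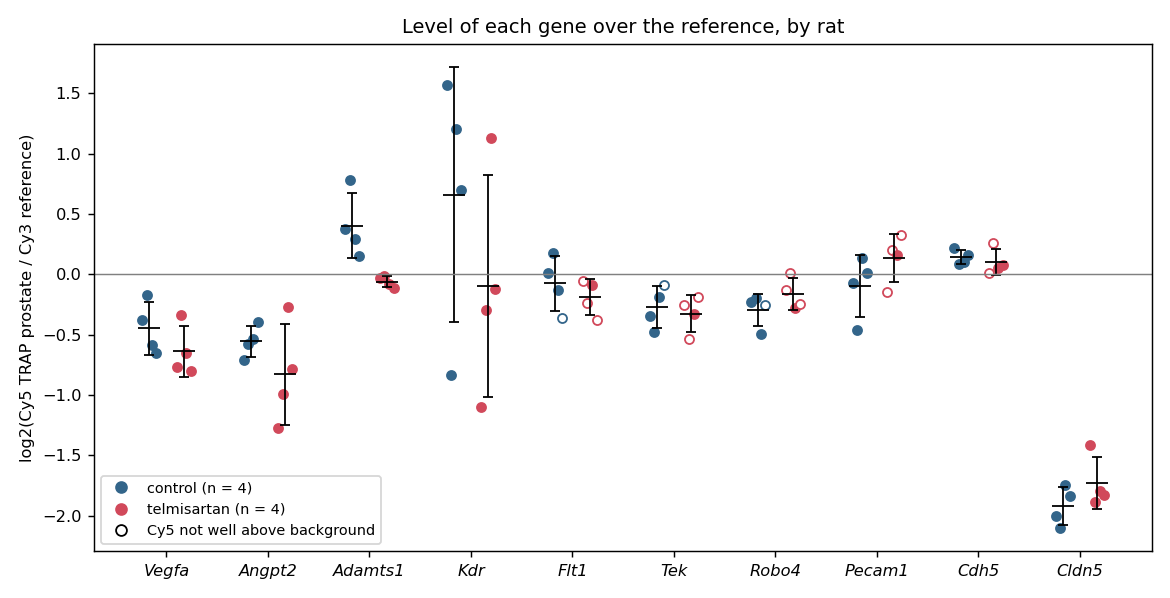
Log2 ratio over the reference of each gene in each rat, control and treated, with bars for the group mean ± SD (n = 4 each). Filled points were well above background in Cy5 and open points were not. Adamts1 is the 1 gene whose groups do not overlap, Kdr spreads from -1.10 to 1.57 and Cldn5 lies at -1.41 or lower in every rat.

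Among the receptors, Kdr had the widest spread between rats of the 10 genes after normexp and loess. Its log2 ratio was 1.57 in Control 102, -0.83 in Control 103, 1.20 in Control 104 and 0.70 in Control 106. In the treated rats it was -1.10 in Telmisartan 302, -0.29 in 303, 1.13 in 305 and -0.12 in 306. Each group held rats above and below the reference after loess, and the groups overlapped widely (means of 1.96 and 1.28 with median centring). The means were 0.66 ± 1.06 and -0.10 ± 0.92 (SD, n = 4 each), a 1.69-fold lower value in treated rats that was within the spread (log2 difference -0.76, SE 0.55, limma adjusted p = 0.982). Over the 8 rats the SD was 1.0, and 0.487% of the genes tested had one as large. The next highest among the 10 genes were 0.324 for Angpt2 and 0.306 for Adamts1, and the lowest was 0.0835 for the dim Cdh5. With the scanner's ratio dim genes spread as widely: the control SD was 1.13 for Tek and 1.08 for Kdr, and the treated SD was 1.17 for Pecam1 and 0.937 for Kdr.

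The spread of Kdr came from the Cy5 channel. Its uncorrected Cy5 intensity ran from 9483 in Telmisartan 302 to 53532.5 in Control 104, in the scanner's arbitrary units. Its Cy3 intensity ran only from 3629.8 to 4635.0. On the log2 scale after correction the range was 2.37 in Cy5 and 0.298 in Cy3. The group difference depended on single rats: it was -1.25 without Control 103, -1.16 without Telmisartan 305, -0.42 without Telmisartan 302 and -0.45 without Control 102, with limma adjusted p between 0.545 and 1.0 in these 4 fits.

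The other receptors had signals near the background, and their values depended on the processing. Flt1, the VEGF-A trap, read 0.01, 0.17, -0.13 and -0.36 in control and -0.06, -0.24, -0.08 and -0.38 in treated rats, a difference of -0.12 (SE 0.13, limma adjusted p = 0.982). Its dimmer probe differed the other way, by 0.19 (SE 0.14). Tek, the angiopoietin receptor, read -0.34, -0.48, -0.18 and -0.08 against -0.25, -0.53, -0.33 and -0.19, a difference of -0.05 (SE 0.12, limma adjusted p = 0.997). Robo4 read -0.23, -0.20, -0.49 and -0.25 against -0.13, 0.01, -0.28 and -0.24, a difference of 0.13 (SE 0.11, limma adjusted p = 0.982). Groups overlapped for all 3 genes. Because Cy3 was not well above background, these ratios set no fold over the reference. With median centring the control and treated means were -0.51 and -0.77 for Flt1, -0.82 and -0.89 for Tek and -0.85 and -0.77 for Robo4. With the scanner's own ratio the group differences were -0.76 for Flt1, -0.46 for Tek and 0.62 for Robo4 (limma unadjusted p = 0.0203, adjusted p = 0.929).

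Of the junction and surface genes, Cldn5 was the member farthest from the reference and lay under it by more than 2-fold in all 8 rats after loess (means of -1.09 and -0.82 with median centring). The log2 ratios were -1.998, -2.10, -1.75 and -1.84 in control and -1.41, -1.89, -1.79 and -1.83 in treated rats. Telmisartan 302 was the highest, and the other 3 treated rats lay among the controls. The means were -1.92 ± 0.16 and -1.73 ± 0.21 (SD, n = 4 each), a difference of 0.19 (SE 0.13, limma adjusted p = 0.982). Among all genes tested, 3.29% lay below 2-fold in all 8 rats. None of the 10 genes was above 2-fold in all 8, where 3.73% of all genes were.

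Pecam1 and Cdh5, the usual identifying markers of endothelium, were faint. Pecam1 read -0.07, -0.46, 0.14 and 0.01 in control and -0.15, 0.20, 0.16 and 0.32 in treated rats, a difference of 0.23 (SE 0.15, limma adjusted p = 0.982). Its Cy5 signal was lower in treated rats, by -0.18 on the log2 scale, and its Cy3 signal was lower still, by -0.42 (exact permutation p = 0.0857). The difference reversed to -0.42 with the scanner's own ratio. The Cy3 signal of Pecam1 was well above background on 0 of 8 arrays. It was lowest in Telmisartan 306, at 5.90, and next lowest in Telmisartan 303, at 6.41. The higher ratio in treated rats thus lay in this Cy3 signal, as the Cy5 signal was lower. What lowered the Cy3 signal was not tested. Cdh5, whose Cy3 signal was above background on 1 of 8 arrays, read 0.22, 0.09, 0.11 and 0.16 against 0.01, 0.26, 0.06 and 0.08 for probe A_44_P121658, a difference of -0.042 (SE 0.092, limma adjusted p = 0.997). With the scanner's ratio the difference was -0.56 and the control SD 0.77. Its second probe gave a difference of 0.068 (SE 0.11). A floor was set for Cy3 at the lowest signal that counted as well above background, or at the probe's own signal where higher. Over this floor the mean Cy5 signal of control rats stood 1.1-fold higher by the first probe and 1.02-fold by the second. The second probe lay below the reference in Control 104 and Control 106, at -0.06 and -0.02. Neither probe passed in Cy3 on a control array, so these values set no fold over the reference. They come from loess: with median centring the control mean of the first probe was -0.058, below the reference.

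The levels of the 5 measured genes fell in the order Kdr, Adamts1, Vegfa, Angpt2 and Cldn5 in control rats. Kdr and Adamts1 did not differ beyond the spread of Kdr, nor Vegfa and Angpt2 beyond their own. Cldn5 lay below Angpt2 in every rat, though closely in Telmisartan 302 (-1.41 against -1.27). Adamts1 and Vegfa did not overlap in the control rats. These are ratios to the reference and not amounts of one transcript against another. They depended on the dye correction: before it, Kdr averaged 3.15 and Adamts1 2.08 in control rats, and 2.52 and 1.49 in treated rats. Median centring raised the median level of all genes from 0.060 to 0.668 in control rats and from 0.063 to 0.727 in treated rats, while it moved the dim genes down. Among the 5 well measured genes, only both group means of Cldn5 (below the reference) and the control means of Kdr and Adamts1 (above it) kept their side with loess, the scanner's own ratio, no background correction and median centring.

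Across the 10 genes 7 had a lower mean in treated rats and 3 a higher one, whereas 50.6% of all genes tested were lower. With median centring Pecam1 joined the lower ones, at -0.131, and 40.2% of all genes were lower. The median difference was -0.084 for the 10 genes and -0.0020 for all genes. The position of an array on its slide cannot be told apart from the group, as control arrays lay at positions 3 and 4 and treated arrays at 1 and 2.

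**Figure D3:**
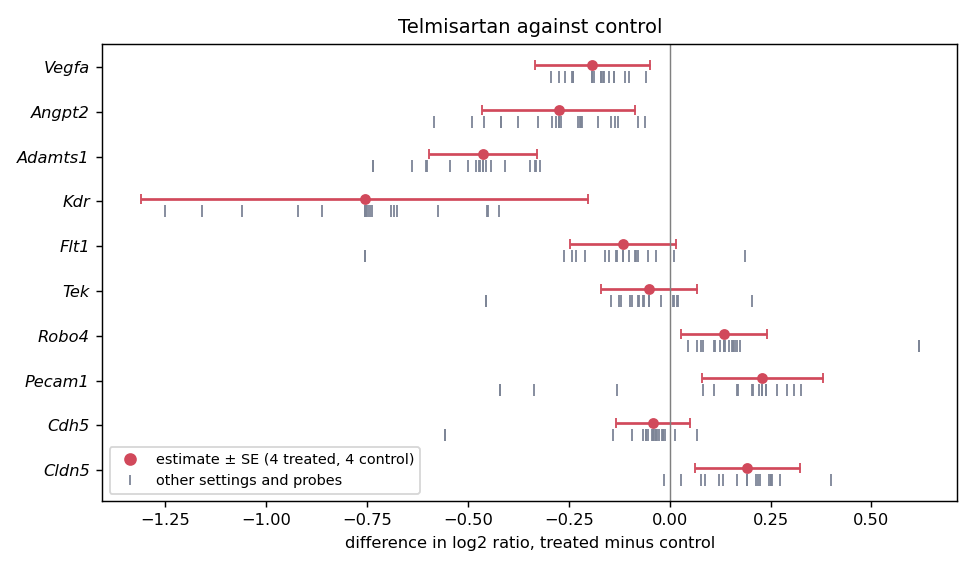
Difference in log2 ratio, treated minus control, with its SE from limma (n = 4 each), for each gene, and below it as ticks the same difference under the other settings and probes tried. Kdr has the widest error (-0.76, SE 0.55), Adamts1 the largest difference relative to its error (-0.46, SE 0.13), and the ticks of Flt1, Tek, Pecam1, Cdh5 and Cldn5 lie on both sides of 0.

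The rat-to-rat course of Kdr was set beside that of leukocyte genes after both had been seen. The leukocyte list held Ptprc, Cd68, Itgam, Cd3d, Cd3e, Cd2, Tyrobp and Laptm5, and its mean log2 ratio was 2.42, 1.12, 2.29 and 2.14 in control and 0.645, 1.45, 2.22 and 1.54 in treated rats. Kdr put the 8 rats in the same order. Pearson's r was 0.982 (exact permutation p = 2.48e-05, the smallest of the 40320 pairings; adjusted over the 10 genes 0.000248) and Spearman's rho was 1.0 (exact permutation p = 4.96e-05). Without the 2 rats farthest from the median, Control 103 and Telmisartan 302, r was 0.987. It was 0.978 with slide means removed and 0.979 with group means removed. By single genes r was 0.987 for Cd2 and 0.978 for Cd3d, both of T cells, 0.969 for the pan-leukocyte gene Ptprc, 0.959 for the myeloid adaptor gene Tyrobp, 0.956 for Laptm5, 0.928 for the T cell gene Cd3e, 0.894 for the macrophage gene Cd68 and 0.518 for the myeloid integrin Itgam.

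None of the other 9 genes followed the leukocyte list after adjustment. Angpt2 came closest, with r of 0.73 (exact permutation p = 0.0379, adjusted 0.19) and rho of 0.571 (exact permutation p = 0.151). Adamts1 had an r of 0.0246, Vegfa -0.0039, Cldn5 -0.363 and Cdh5 0.398. The list itself was lower in treated rats for 8 of its 8 genes, against 50.6% of all genes tested, with a median difference of -0.44. Its mean per rat ran from 1.12 to 2.42 in control and from 0.645 to 2.22 in treated rats. Itgam alone had an unadjusted p under 0.05 in limma (difference -0.55, SE 0.165, adjusted p = 0.934). Of all genes 2.07% were lower at that p. The groups did not overlap for Itgam, as for 1.23% of all genes with the treated rats lower. No gene of the list passed after adjustment.

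Other endothelial genes went with Kdr less closely. Over the 8 rats, 15 further pan-endothelial genes had correlations with Kdr from 0.305 for Emcn to 0.945 for Icam2, with a median of 0.583. Icam2 is an adhesion molecule that leukocytes carry as well. The lymphatic, pericyte and smooth muscle lists had medians of 0.156, -0.103 and -0.431, and all genes tested a median of -0.050. Single genes ranged from -0.372 to 0.66 in the lymphatic list and from -0.736 to 0.798 in the pericyte list. In the smooth muscle list they ranged from -0.768 to 0.017. The 2 genes most like Kdr were Klrc3, a lectin-like receptor gene of natural killer cells (r = 0.999), and Camk4, a calcium-dependent kinase found in T cells and neurons (r = 0.998). In all, 377 genes, or 1.63% of those compared, had an r above 0.95 with Kdr, while each of the other 9 genes had 1 to 8 such partners. These correlations share libraries and carry no test. Whether the Kdr probe reads Kdr transcripts alone, and what share of its signal comes from leukocytes, was not tested.

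**Figure D4:**
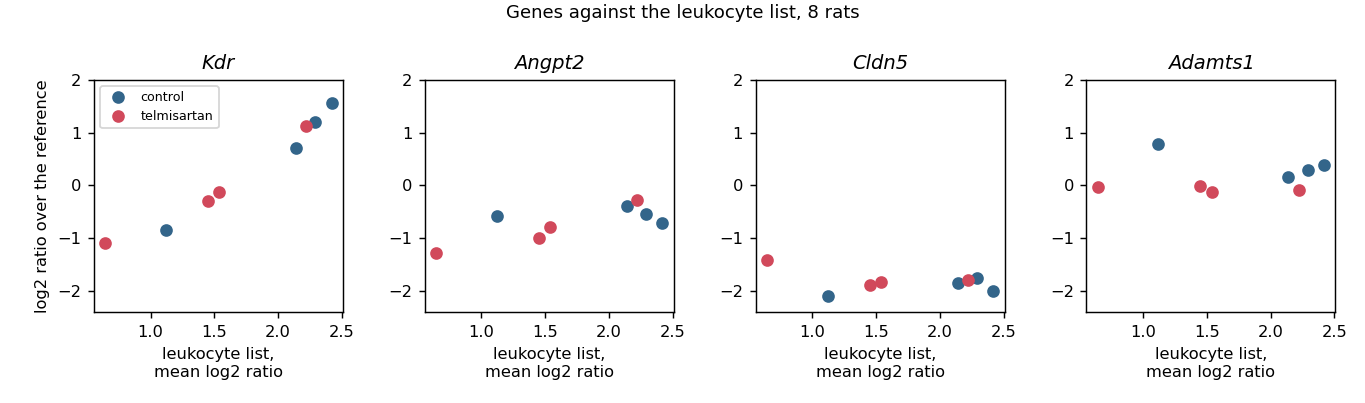
Log2 ratio of single genes of the 10 in each rat (vertical axes) against the mean log2 ratio of the leukocyte list in that rat (horizontal axes), control and treated rats marked apart. Kdr rises with the list through all 8 rats (r = 0.982), and the other genes shown have r between -0.363 and 0.73.

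The other well measured genes had their own nearest neighbours. Angpt2 was closest to Egfr, the epidermal growth factor receptor (r = 0.977), and Dpy19l1 (r = 0.975). Adamts1 was closest to Ranbp9 (r = 0.975) and to Cd52 (r = 0.97), which itself lay between -3.93 and -2.56. Vegfa was closest to the dynein chain gene Dync1i2 (r = 0.958) and to Pts (r = 0.954), and Cldn5 to Dnttip1 (r = 0.961) and Abhd14a (r = 0.957). Likeness here is Pearson's r over 8 rats, taken as the highest among 11399 named genes.

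Of the 45 pairs among the 10 genes, 0 passed an adjusted exact permutation p of 0.05, also with slide means removed. In 35 of these pairs at least 1 gene was near background, so a missing call there says little. The pair of well measured genes with the highest r was Vegfa and Adamts1 (r = 0.769, rho = 0.833, exact permutation p = 0.0191, adjusted 0.221), with an r of 0.876 without the 2 rats farthest from the median. Kdr and Vegfa had an r of -0.060 (exact permutation p = 0.889), which was 0.803 without Control 103 and Telmisartan 303 (exact permutation p = 0.0611, adjusted 0.458). Kdr and Cldn5 moved as well, from -0.249 to 0.85 without Telmisartan 302 and Control 102 (exact permutation p = 0.00694, adjusted 0.156). Vegfa and Cldn5 had an r of -0.757 (exact permutation p = 0.0229, adjusted 0.221). Adamts1 had an r of 0.663 with the share of spots above background in Cy5 (exact permutation p = 0.0658), which was 0.139 once group means were removed. For Kdr that r was 0.66 (exact permutation p = 0.0835) and 0.592 with group means removed. For the dim Robo4 it was -0.685 (exact permutation p = 0.0476) and -0.852 with slide means removed (exact permutation p = 0.00799). None of the 10 passed after adjustment over the genes, where the smallest p was 0.278, or 0.0799 with slide means removed.

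Among the tested genes of the wider vessel lists, none passed an adjusted p of 0.05 either. Of the 15 pan-endothelial genes tested, 10 were lower and 5 higher in treated rats, with a median difference of -0.061 and 0 at an unadjusted p under 0.05. Of 18 such genes listed 17 were on the array, and Cd34, Ecscr and S1pr1 were not tested. Of the 15 tested, 14 were well above background in Cy5 on all 8 arrays, against 83.2% of all genes tested. The filter on dim probes came before this count. The median level of these 15 lay at -0.53 in control and -0.63 in treated rats after loess. Median centring raised the median of all genes to 0.668 and 0.727. The list levels given here and below were not computed with it, so their side of the reference is that of loess alone. Vwf, the clotting factor of endothelial stores, stood at -0.16 in control and -0.17 in treated rats. Clec14a, an endothelial lectin, stood at -0.88 and -1.08, and the transcription factor gene Erg at -0.37 and -0.63 (difference -0.27, SE 0.14, limma adjusted p = 0.982).

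Of 16 further VEGF and angiopoietin pathway genes 10 were tested, and 8 of these were lower and 2 higher, with a median of -0.095. Flt4, Nrp2, Angpt4, Pdgfb, Efnb2 and Ephb4 were not tested. The peptide gene Apln, expressed at growing vessel tips, was at -1.51 in control and -2.22 in treated rats (difference -0.71, SE 0.34, limma adjusted p = 0.982). The lymphatic growth factors Vegfc and Vegfd differed by -0.29 and -0.20, and Vegfb by 0.12. Of 9 Notch and tip cell genes 6 were tested, without Dll4, Notch1 and Unc5b, and 3 were lower and 3 higher. The tip cell gene Esm1 was at -0.50 and -1.27 (difference -0.77, SE 0.30, limma unadjusted p = 0.029, adjusted p = 0.982).

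Of 8 angiogenesis inhibitors 6 were tested, without Thbs1 and Vash1, and 2 were lower and 4 higher. Thbs2, the matrix protein thrombospondin 2, had the smallest p among all lists. It was at -0.39 in control and -1.46 in treated rats (difference -1.07, SE 0.29, limma unadjusted p = 0.00467, adjusted p = 0.923). Of 14 hypoxia genes 11 were lower and 3 higher with a median of -0.062. The list held hypoxia targets, the class to which Vegfa belongs, and the hypoxia factor genes Hif1a (-0.34) and Epas1 (-0.049). The glucose transporter gene Slc2a1 was at 0.37 and -0.036 (difference -0.41, SE 0.17, limma unadjusted p = 0.0366, adjusted p = 0.982), and the oxygen sensor gene Egln3 at 1.24 and 0.73. Counts at an unadjusted p under 0.05 were 1 each for the Notch, inhibitor and hypoxia lists, all lower, against 2.07% of all genes in that direction.

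Lists of other cells in the tissue gave the frame for these values, again by their tested genes only. Of 7 pericyte genes 5 were lower and 2 higher with a median of -0.056. Of 6 smooth muscle genes 1 was lower and 5 were higher, with a median of 0.17. At an unadjusted p under 0.05, 2 of the 6 were higher, against 2.74% of all genes: Myh11 and Mylk, which serve contraction, differed by 0.39 and 0.33 (limma unadjusted p = 0.0407 and 0.0413, adjusted p = 0.982 for both). The labelled tissue was checked by luminal epithelial genes such as Foxa1 and Krt18: all 6 tested were well above background in Cy5 on 8 arrays, 3 were lower and 3 higher, and their mean per rat lay between 0.172 and 0.548. Lymphatic genes numbered 3, with differences of 0.44 for Ccl21, 0.13 for Lyve1 and -0.0053 for Pdpn. The 2 platelet genes were lower by -0.50 for Pf4 and -0.14 for Gp9, the 3 red cell genes had a median of -0.083, and the adipocyte and skeletal muscle genes lay at medians of -4.93 and -4.07 under the reference in control rats. The part of these cells in the values of the 10 genes was not tested.

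**Figure D5:**
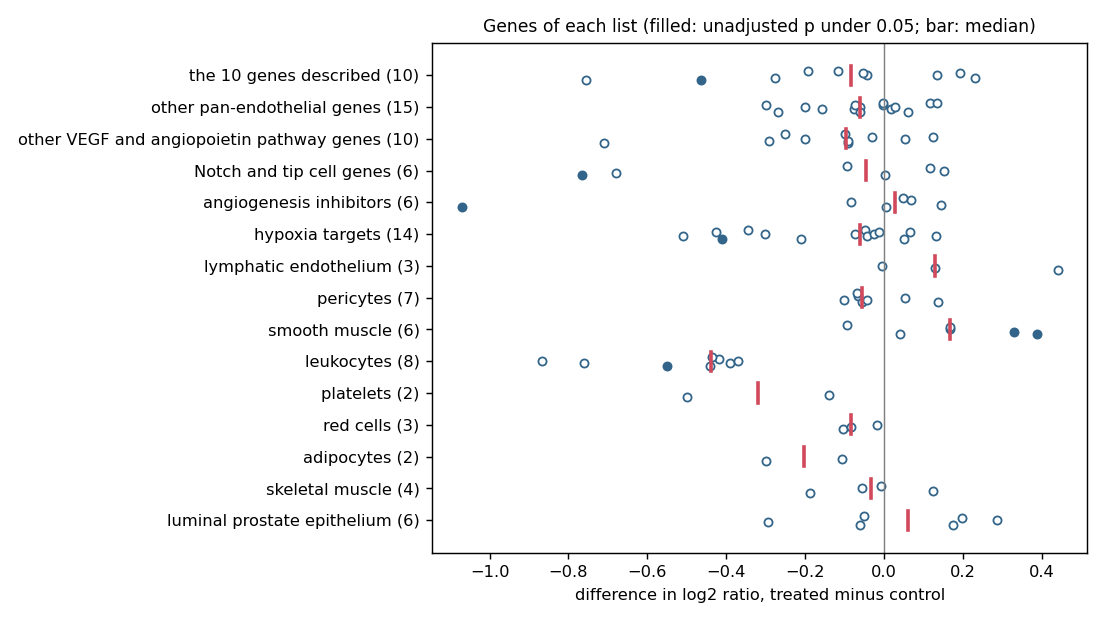
Treated minus control difference in log2 ratio for each tested gene of the vessel and cell type lists (points, filled where the unadjusted p was under 0.05) with the list median (bar). Medians lie between -0.44 for leukocytes and 0.17 for smooth muscle, and no gene passed an adjusted p of 0.05.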

How the data were processed

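Per the submitters' processing notes, array images were quantified in Agilent Feature Extraction 9.1. Per the file headers, the deposited files hold uncorrected mean intensity and local background intensity per spot in both channels, and the software's own background-subtracted, dye-normalized ratio (Cy5 to Cy3) as log10. The deposited series matrix holds log10 values that matched those ratios spot by spot (largest difference 0.005), so its scale and direction are the same. It was used as an alternative. Extraction used ISOGEN and labelling a linear amplification, per the labels' protocols. The sources used here do not say whether the reference was 1 pool.

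Intensities of 45018 spots per array were background-corrected with normexp (offset 50) and normalized by loess within arrays in limma 3.58.1 (R 4.3.3), with 1639 control spots at weight 0 and outlier spots left out. Spots of a probe were averaged. A probe was tested if its Cy5 signal passed the scanner's background test on 4 or more of the 8 arrays, and the brightest probe stood for its gene, leaving 23186 genes. Names came from a RefSeq table of assembly GRCr8, matched by accession for 10726 probes, by current symbol for 5586 and by older symbol for 3730, and 20970 kept the file's name. Probe sequences are those in the scanner files. Groups were compared with lmFit and eBayes, two-sided, adjusted by Benjamini-Hochberg over all genes. Correlations and array quality used exact permutation tests in SciPy. Each array was of a separate rat, per the labels. The dye direction is that of the labels and was never swapped.

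All 10 genes and all their probes are given. For each list up to 4 genes by smallest unadjusted p were named, and for each gene above background on all 8 arrays the 2 most like it. Vwf was named besides this rule, as were the leukocyte genes set against Kdr. The genes and lists were chosen with earlier results of these data known. Alternatives covered background correction, normalization, the Cy5 channel alone, the probe filter, other probes, slide, variance model, array weights and each rat left out. The comparison of Kdr with leukocyte genes and the omission of Control 103 with Telmisartan 302 were added after seeing the data. Rats given 2 mg/kg were not analysed here.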

Additional observations from a re-analysis of the deposited data

How the results depend on the processing

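Differences between the groups kept their direction for Vegfa, Kdr, Robo4, Angpt2 and Adamts1 under every alternative run, though Robo4 ranged from 0.046 to 0.617 and the Flt1, Tek and Cdh5 differences reached -0.756, -0.456 and -0.557 with the scanner's ratio. Flt1 reversed on the second slide alone (0.0099) and by probe A_43_P12015 (0.187). Tek reversed in the Cy5 channel alone (0.0078), on the first slide alone (0.020), by probe A_44_P335594 (0.205) and with single rats left out (-0.121 to 0.017). Pecam1 reversed with the scanner's ratio and the series matrix (-0.421 in both), with median centring in place of loess (-0.131) and in Cy5 alone (-0.336). Cdh5 reversed with probes averaged (0.013) and by probe A_43_P19735 (0.068), and Cldn5 on the second slide alone (-0.015). The cause was not tested. Genes past adjusted p 0.05 numbered 0 in limma, with 1117 at an unadjusted p under 0.05, and 0 to 1 with 1 rat left out; the 1 gene was BI289714 without Control 102 and AI045810 without Telmisartan 303. Unadjusted calls were 2598 with array weights and 1412 with slide as a block. With 1 rat left out they ran from 666 without Telmisartan 306 to 2021 without Control 103. Of the settings tried, median centring changed levels over the reference of all 5 well measured genes; it raised the median level of all genes from 0.060 to 0.668 in control and from 0.063 to 0.727 in treated rats. Control and treated means were then 0.375 and 0.183 for Vegfa, 1.96 and 1.28 for Kdr, -1.09 and -0.818 for Cldn5, 0.4 and 0.025 for Angpt2 and 0.888 and 0.25 for Adamts1, and the share of genes lower in treated rats fell from 50.6% to 40.2%. With the scanner's ratio or the series matrix they were -0.672 and -0.911 for Vegfa and -2.48 and -2.23 for Cldn5, and the Angpt2 control mean was -0.748 and -0.749. With no background correction Cldn5 was at -1.61 and -1.49. Probe A_44_P300751 put Vegfa at -0.378 in treated rats, and the unmeasured probe A_44_P419123 put Angpt2 at -0.075 and -0.22. The correlation of Kdr with the leukocyte list stayed between 0.956 and 0.987. No paired analysis was possible because the groups share no replicate numbers.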
